A study of Mus musculus with 20 samples.

Results

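The enzymes that remove palmitate from proteins were followed in NSC-34 cells with and without induced HuD, from HuD binding to total RNA, polysomal RNA and 3′ ends. The members were 8 genes listed by symbol: Lypla1, Lypla2, Lyplal1, Abhd17a, Abhd17b, Abhd17c, Ppt1 and Ppt2. Of these, 7 were found among the 15229 gene names in the tables. Lyplal1 is not analysed here. RNA and polysomal counts were at hand for 7 members, 3′ end counts for 6 (not Ppt1), and HuD binding windows for 3 (Lypla1, Lypla2 and Abhd17c). Lypla1 was chosen by its change in polysomal over total RNA in these same libraries, so its values in that contrast, in the total and polysomal RNA contrasts that make it up, and in the ratio of polysomal to total RNA in its control libraries, are given as a description with no test.

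NSC-34 is a mouse motor neuron-like hybrid line of neuroblastoma and spinal cord cells. It was engineered here to make tagged human HuD, an RNA-binding protein of the ELAV family also called ELAVL4, from a tetracycline-inducible construct. The series held 20 libraries. For CRAC, in which RNA crosslinked to tagged HuD is purified and sequenced, 3 libraries came from Trex-HuD NSC-34 cells and 3 from control Trex NSC-34 cells, and the labels give both lines 10 µg/ml tetracycline for 24 h. RNA-Seq of total RNA and POL-Seq of polysomal RNA had 2 libraries each of HuD induced and of control cells, and 3′ end sequencing had 3 of each. For these, HuD induced cells had received 2 µg/ml tetracycline for 48 h per the labels. The study's own text names doxycycline as the inducer. The labels do not give what their control cells received, and neither labels nor methods state whether a line was a single clone. The study's methods call the RNA-Seq and POL-Seq replicates and those of 3′ end sequencing biological, and the labels say no more of where each came from.

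S-palmitoylation is the reversible attachment of a fatty acid to cysteines of a protein. Acyltransferases of the ZDHHC family add the palmitate, and thioesterases take it off, which moves proteins such as Ras, G protein alpha subunits and synaptic scaffolds between membranes and cytosol. Lypla1 and Lypla2 encode the cytosolic acyl-protein thioesterases APT1 and APT2, and Lyplal1 a relative of both. Abhd17a, Abhd17b and Abhd17c encode membrane-bound hydrolases that depalmitoylate N-Ras and the scaffold PSD-95. Ppt1 and Ppt2 encode thioesterases of the lysosome, and loss of PPT1 causes an infantile neuronal storage disease.

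The sequences under the HuD windows are shown because they carry the binding data of the family. Each is 7 nt, in capitals, with 11 nt on either side, read 5′ to 3′ from GENCODE vM21 transcripts (GRCm38), and all lie in a 3′ UTR. Positions are those of the capitals. The listed starts were 2 nt lower for all 8 Lypla1 windows on the plus strand and 1 nt higher for both windows on the minus strand.
Lypla1 window 1, chr1:4845269-4845275, plus: agcaacuagauUCUUUGUcucaaauucag
Lypla1 window 2, chr1:4845448-4845454, plus: cuguauuuuucUGUUUGUauucacauaga
Lypla1 window 3, chr1:4845525-4845531, plus: auggggauaauGCUUUUGagugucaaaaa
Lypla1 window 4, chr1:4845685-4845691, plus: gucauauauuuUAUUUUGacauuuugaga
Lypla1 window 5, chr1:4846009-4846015, plus: aauaaaucuguGGUUUUAuuuuucuguaa
Lypla1 window 6, chr1:4846354-4846360, plus: acugguuagaaCAUUAUAuauauauccca
Lypla1 window 7, chr1:4846446-4846452, plus: gcuuuucuugcUGUUUUCcaaccaaccaa
Lypla1 window 8, chr1:4846503-4846509, plus: gauaugaagauCAUUUUGguauguccuag
Lypla2 window 1, chr4:135968284-135968290, minus: ugucuucauguGGUUUUGgguguuuuucu
Abhd17c window 1, chr7:84109968-84109974, minus: uacuagccaagAGUUUUAauauuuugauu

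Lypla1 held 8 HuD windows, Lypla2 and Abhd17c held 1 each, and none was listed for Abhd17a, Abhd17b, Ppt1 or Ppt2. Over all protein coding genes with RNA counts, matched by symbol to the annotation, 9.88% held a window (1230 of 12453). Among the 1304 protein coding genes with a window, 794 had 1 window and 23 had more than Lypla1. Lypla1 ranked 24 by number of windows, 99 by summed coverage and 114 by summed deletions. Its summed coverage was 300, against 12 for Lypla2, 19 for Abhd17c and a median of 27 per gene. Coverage in the control libraries was 0 at all 10 windows, as at 96.3% of all windows on protein coding genes. The authors had penalised positions read in control cells before listing windows. The replicates were pooled by the authors, so these values have no replicate check.

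Window 3 of Lypla1, with the core GCUUUUG, had the highest coverage of the family, 93 reads with 5 deletions. Window 4 followed with a coverage of 53 and 4 deletions, then window 8 with 37 and 3 deletions. Windows 2 and 7 both had a coverage of 36, with 5 and 3 deletions. Windows 6, 5 and 1 were the least covered, at 20, 18 and 7. A deletion marks the crosslinked base, and window 6 held the most, 7, although its core CAUUAUA is the only one of Lypla1 without the UUU triplet. UUU was found in 7 of the 8 Lypla1 cores, against 96.2% of the 2606 windows on protein coding genes. UUUG was in 5 of the 8, against 31.2% of all, and UUUU in 5 of the 8, against 52.5% of all. The authors' combined p-value of coverage and deletions, which is not adjusted, ran from 0.0637 (window 3) to 0.313 (window 5) in Lypla1 and was 0.255 for Lypla2 and 0.221 for Abhd17c. None of the 10 windows was under 0.05, as 20.8% of all windows on protein coding genes were.

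The Lypla1 windows were spread over much of the 3′ UTR. They began 253 to 1487 nt after the stop codon in a 3′ UTR of 1723 nt, with 57 to 345 nt from the start of a window to the start of the next. Reads of 3′ end sequencing were counted at known polyadenylation sites. The 1 site counted for Lypla1, at chr1:4846739, is the end of the annotated transcript ENSMUST00000027036. This match follows from the counting and does not check where the mRNA ends. All 8 windows lay 236 to 1470 nt upstream of this site, so each was within an mRNA that ends there. The Lypla2 window lay 66 nt before the counted end of its mRNA, in a 3′ UTR of 793 nt. The Abhd17c window lay 618 nt before the counted end, in a 3′ UTR of 1226 nt. Per kb of 3′ UTR, Lypla1 had 4.64 windows, Lypla2 1.26 and Abhd17c 0.816, and the median of 1226 target genes with a 3′ UTR length was 0.886. This density put Lypla1 at percentile 90.1 of those genes. All listed windows of a gene were counted, in whatever region, and 78.6% of windows on protein coding genes were labelled 3′ UTR alone.

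**Figure D1:**
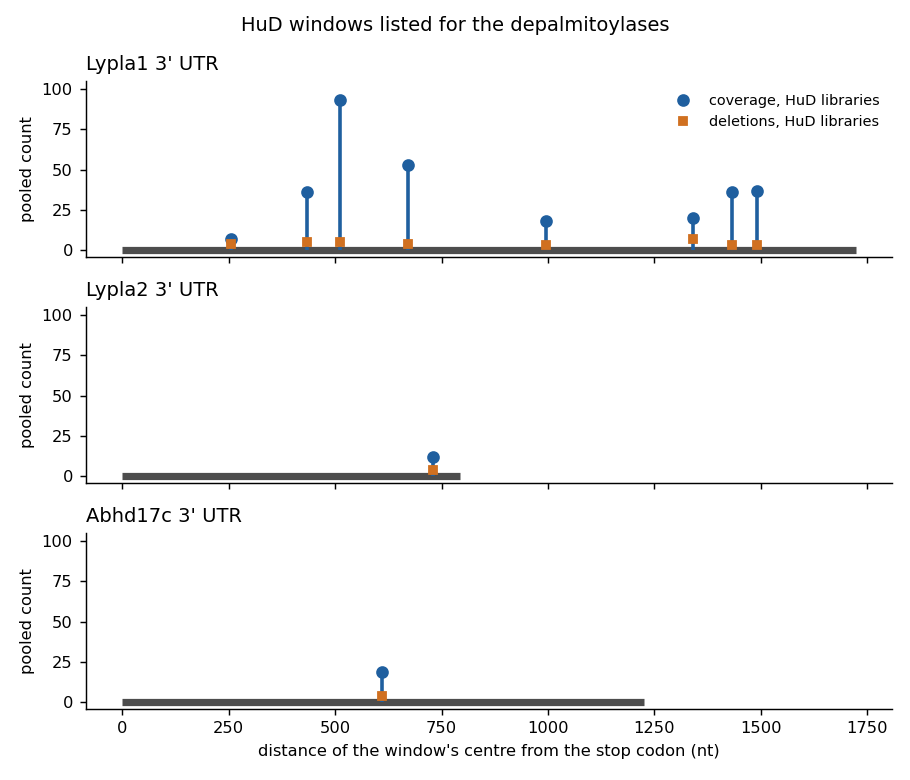
HuD windows along the 3′ UTRs of Lypla1, Lypla2 and Abhd17c (grey bars, length to scale), with distance from the stop codon in nt on the x axis and the pooled coverage (circles) and deletions (squares) of the HuD libraries on the y axis. The 8 Lypla1 windows reach a coverage of 93, while the window of Lypla2 is at 12 and that of Abhd17c at 19.

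The 3′ UTRs of the family differed in base composition and in length. Uridine made up 34.9% of the Lypla1 3′ UTR (percentile 90.9 of 12400 genes), 34.0% of that of Abhd17c and 33.8% of that of Abhd17b. The Abhd17b 3′ UTR was thus about as U-rich as the other two, with 51.2 UUU starts per kb against 55.7 in Lypla1 and 57.1 in Abhd17c, and no window was listed for it. Ppt1 (29.3% U) and Ppt2 (26.1%) were nearer to the median of all genes, 28.7%. Lypla2 had 22.7% U and 11.3 UUU starts per kb, against a median of 32.4, and held a window all the same. Abhd17a was the poorest in U, at 18.2% (percentile 1.29), with the shortest 3′ UTR of the 7, 484 nt. The 3′ UTR used is the longest annotated for each gene.

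All 7 measured members were expressed, and Lypla2 stood well above the rest. In control cells, total RNA held 113.7 ± 8.58 CPM of Lypla2 per kb of transcript (CPM, counts scaled to the TMM-normalized library size; mean ± SD, n = 2). Abhd17a had 30.6 ± 2.05, Abhd17c 29.5 ± 2.02, Lypla1 26.1 ± 1.33, Ppt1 21.5 ± 1.48, Abhd17b 17.8 ± 1.49 and Ppt2 14.6 ± 0.661 CPM per kb. In this order Abhd17a and Abhd17c overlapped between libraries, and every other neighbour was separate from the next. In 3′ end counts, which need no length correction, control cells had 745 to 891 CPM for Lypla2 and 135 to 169 CPM for Lypla1. Abhd17b was lowest there, at 21.7 to 24.7 CPM. In the GENCODE vM21 annotation, exons of Lypla1 overlap those of Gm37988 and exons of Ppt2 those of Gm20460, both on the same strand. Neither Gm37988 nor Gm20460 had a row in the RNA and polysomal counts. Exons of Ppt1 overlap Cap1 on the opposite strand. Whether the counting used strand is not given in the sources used here, so reads of Ppt1 and Cap1, which had 3023 to 4795 counts, cannot be told apart with certainty.

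RNA-Seq and POL-Seq libraries held 21296012 to 36284728 counts, and 3′ end libraries 12986862 to 15751036 counts over unique ends. Elavl4, the induced gene, was at 78.3 and 97.4 CPM in total RNA of control cells and at 237 and 212 CPM in HuD induced cells, a log2 change of 1.35 (SE 0.15, adjusted p = 0.0866 in edgeR). Whether reads of the human construct are counted there is not stated. At the 3′ ends of mouse Elavl4 the libraries labelled HuD induced were not higher (54.6, 31.4 and 52.4 CPM, against 78.1, 38.5 and 78.1 in control cells). With the replicate number as a block, Elavl4 ends were lower with HuD (log2 change -0.47, SE 0.10, adjusted p = 0.0306 in edgeR), and without the block the change of -0.49 did not pass the test (adjusted p = 0.922 in edgeR). Where the transcript of the construct ends is not stated, so these ends do not check the labels. Of 12 motor neuron markers 10 were counted, with Tubb3 at 599 and Nefh at 249 CPM, while Chat was at 0.524 CPM and Slc5a7 and Mnx1 had no row. Of 10 markers of glia, microglia and muscle, 4 were counted, with 0.574 (Gfap) to 62.0 CPM (Myh3), and none of them had an unadjusted p under 0.05 in any contrast. At that threshold, Nefl was lower with HuD in total RNA (1 of 10 motor neuron markers tested) and Nefh in polysomal RNA (1 of 10). Slc18a3 was lower in 3′ ends (1 of 6). Their log2 changes were -0.18, -0.30 and -1.10, and none passed adjustment. Over all genes the shares at that threshold were 2.64%, 4.17% and 5.87%. Slc18a3, at 7.75 CPM, had log2 changes of -0.08 in total and 0.02 in polysomal RNA. Nefh had -0.02 in total RNA and 0.06 in 3′ ends, and Nefl -0.11 in polysomal RNA and -0.28 in 3′ ends. With the block, 4 of 6 markers in 3′ ends were at that threshold, against 18.7% of all genes. Slc18a3 and Nefl were lower and Map2 and Tubb3 higher, and 0 passed adjustment. In bulk RNA, fewer cells that express a gene and less RNA per cell cannot be told apart. The control polysomal libraries stood apart from each other: 3.6% of 9702 genes differed over 1.5-fold between them, against 0.216% to 0.309% in the other RNA and polysomal pairs.

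Lypla1 mRNA was lower in total RNA and higher in polysomal RNA of HuD induced cells. In total RNA it was at 63.0 and 67.7 CPM in control cells and at 56.4 and 59.9 CPM in HuD induced cells. In polysomal RNA it was at 70.8 and 83.1 CPM in control cells and at 93.1 and 92.1 CPM in HuD induced cells. The groups did not overlap in either fraction, and the directions were opposite. Of all genes, 16.7% were lower without overlap in total RNA and 14.1% higher without overlap in polysomal RNA. The log2 change was -0.17 (SE 0.10) in total RNA and 0.27 (SE 0.10) in polysomal RNA. The polysomal change was 0.16 without control replicate 1 of POL-Seq and 0.39 without control replicate 2, so its size depended on which control library was used.

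**Figure D2:**
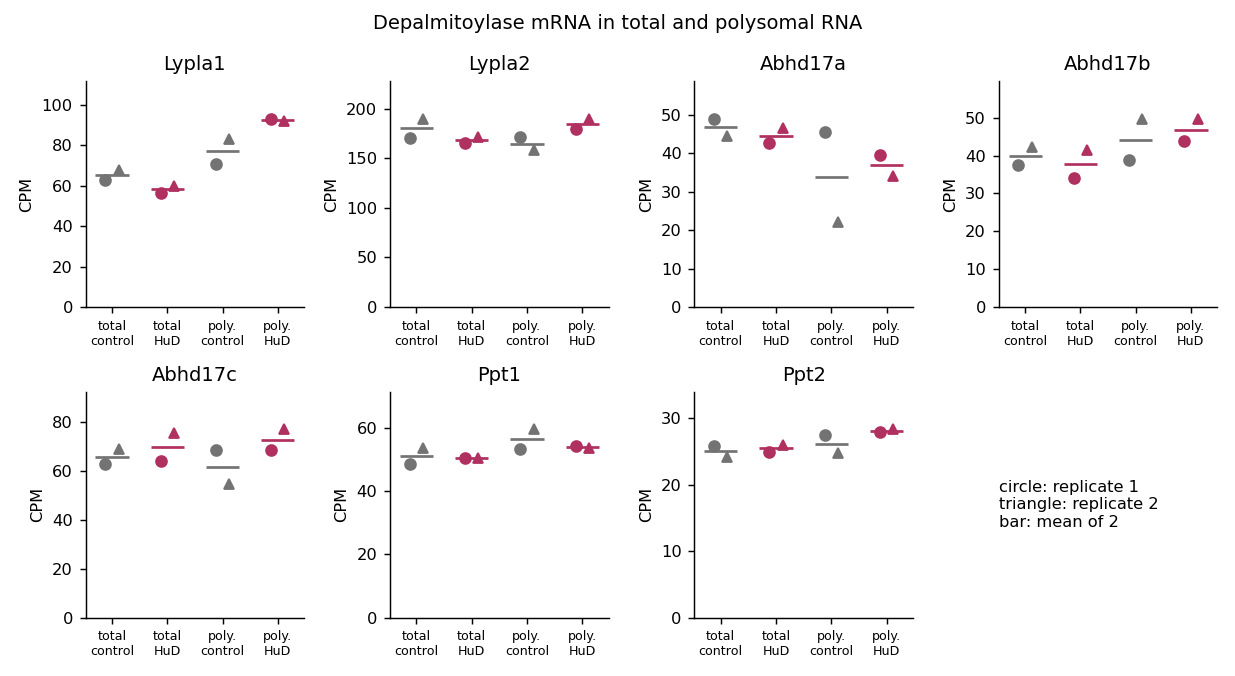
CPM of the 7 depalmitoylases in each library of total and polysomal (poly.) RNA, with control cells in grey, HuD induced cells in red, replicate 1 as circles, replicate 2 as triangles and bars for the mean of 2 libraries. Lypla1 is at 92.1 and 93.1 CPM in polysomal RNA with HuD and at 70.8 and 83.1 CPM without, and Abhd17a falls to 22.2 CPM in 1 control polysomal library.

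Translation efficiency (TE) is used here for the ratio of polysomal to total CPM of a gene in libraries with the same replicate number. No source ties a number to a culture, so whether TE overlaps between groups can depend on this matching. The log2 changes in TE come from the main fit, which does not use the matching. The TE of Lypla1 was 1.12 and 1.23 in control cells and 1.65 and 1.54 in HuD induced cells, higher without overlap as for 18.6% of all genes. The log2 change in TE was 0.44 (SE 0.14), or 1.35-fold, at percentile 96.6 of all genes, and it lay between 0.32 and 0.56 when each of the 8 libraries was left out in turn. This is the value on which Lypla1 was selected. Across all genes the TE contrast had few changes: with edgeR's quasi-likelihood test 146 of 14906 genes (0.979%) had an unadjusted p under 0.05, and 0 (0%) passed after Benjamini-Hochberg adjustment. The adjusted count was also 0 with DESeq2, where 50 genes had an unadjusted p under 0.05.

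Lypla2, the other cytosolic thioesterase and the only other member with both a window and a TE that did not overlap between groups, moved the same way with a smaller size. Its TE was 1.00 and 0.833 in control cells and 1.08 and 1.10 in HuD induced cells. The log2 change was 0.26 (SE 0.13), which did not pass the test (adjusted p = 1.00 in edgeR). In total RNA it was at 171 and 190 CPM in control cells and at 166 and 172 CPM with HuD (log2 change -0.10, SE 0.09, adjusted p = 1.00 in edgeR). In polysomal RNA the HuD libraries, at 180 and 190 CPM, were above the control libraries, at 171 and 158 CPM (log2 change 0.16, SE 0.09, adjusted p = 0.969 in edgeR). The TE change was positive under each of 13 settings, from 0.18 to 0.34. Its unadjusted p in edgeR was under 0.05 without control replicate 1 of POL-Seq, without control replicate 1 of RNA-Seq and with the replicate number as a block. Its adjusted p was at least 0.301 under each of the 13.

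The ABHD17 hydrolases gave no change that passed the test. Abhd17b was at 37.6 and 42.4 CPM in total RNA of control cells and at 34.1 and 41.4 CPM with HuD, and at 38.9 and 49.6 against 43.9 and 49.7 CPM in polysomal RNA. Its TE was 1.03 and 1.17 in control cells and 1.29 and 1.20 with HuD, a log2 change of 0.17 (SE 0.20, adjusted p = 1.00 in edgeR). With libraries matched by number the groups did not overlap, but their gap was small beside the spread within a group. Abhd17c, which held a HuD window, was at 62.8 and 69.2 CPM in total RNA of control cells and at 64.3 and 75.6 CPM with HuD. In polysomal RNA it was at 68.9 and 54.9 CPM in control cells and at 68.6 and 77.1 CPM with HuD (log2 change 0.23, SE 0.13, adjusted p = 0.969 in edgeR). Its groups overlapped in both fractions and in TE, whose log2 change was 0.15 (SE 0.18, adjusted p = 1.00 in edgeR). Its polysomal log2 change was 0.41 without control replicate 1 of POL-Seq, a fit that left 1 control polysomal library.

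Abhd17a showed how much the 2 control polysomal libraries differed. It was at 45.5 CPM in control replicate 1 of POL-Seq and at 22.2 CPM in replicate 2, while the HuD libraries were at 39.6 and 34.2 CPM. In total RNA all 4 libraries lay between 42.7 and 49.0 CPM. The TE change was 0.18 on the log2 scale with an SE of 0.35 (adjusted p = 1.00 in edgeR). It was 0.80 without control replicate 1 and -0.23 without control replicate 2, so no direction is given. The polysomal change likewise ran from -0.29 without control replicate 2 to 0.73 without control replicate 1. Each of these fits left 1 control polysomal library, with no spread of its own.

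The lysosomal thioesterases were nearly level. Ppt1 was at 48.7 and 53.7 CPM in total RNA of control cells and at 50.5 CPM in both HuD libraries. Its polysomal RNA was at 53.4 and 59.5 CPM in control cells and at 54.1 and 53.7 CPM with HuD. Its log2 change in TE was -0.05 (SE 0.12, adjusted p = 1.00 in edgeR). With libraries matched by number, Ppt1 was the only member whose TE was lower with HuD without overlap, at 1.07 and 1.06 against 1.10 and 1.11. Ppt2 was at 25.8 and 24.2 CPM in total RNA of control cells and at 24.9 and 26.0 CPM with HuD. Its polysomal RNA was at 27.4 and 24.8 CPM in control cells and at 27.9 and 28.3 CPM with HuD, and its log2 change in TE was 0.07 (SE 0.13, adjusted p = 1.00 in edgeR).

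Of the 6 members other than Lypla1, none had an unadjusted p under 0.05 in total RNA, polysomal RNA or TE. Over all genes the share was 2.64% in total RNA, 4.17% in polysomal RNA and 0.979% in TE, and no gene passed the adjusted threshold in any of the 3 contrasts (DESeq2 gave 1 gene in total RNA, 3 in polysomal RNA and 0 in TE). Leaving out control libraries changed the count of members. Each such fit left 1 library in a group, whose spread was taken from the other groups. Without replicate 1 of the control polysomal libraries it was 3 of 6 in polysomal RNA (Lypla2, Abhd17a and Abhd17c), against 21.9% of all genes, and 2 of 6 in TE (Lypla2 and Abhd17a), against 13.6%. Without replicate 2 it was 1 in polysomal RNA (Abhd17a), against 5.37%, and 0 in TE. In TE it was also 1, Lypla2, without control replicate 1 of RNA-Seq, against 1.01%, and with the replicate block, against 2.43%. The median log2 change of the 6 was -0.04 in total RNA, 0.11 in polysomal RNA and 0.16 in TE, against -0.00389, -0.00632 and -0.00625 over all genes. The TE change was positive in 5 of the 6, as it was in 48.2% of all genes. All 6 values rest on the same 8 libraries, so their signs are not independent. In TE, with libraries matched by number, Lypla2, Abhd17b and Ppt2 were higher in HuD induced cells without overlap, which held for 18.6% of all genes. Ppt1 was lower without overlap, which held for 20% of all genes. Overlap of TE under another matching of the libraries was not tested. In polysomal RNA, Lypla2 and Ppt2 were higher without overlap, as were 14.1% of all genes. No member other than Lypla1 was lower without overlap in total RNA, as 16.7% of all genes were.

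**Figure D3:**
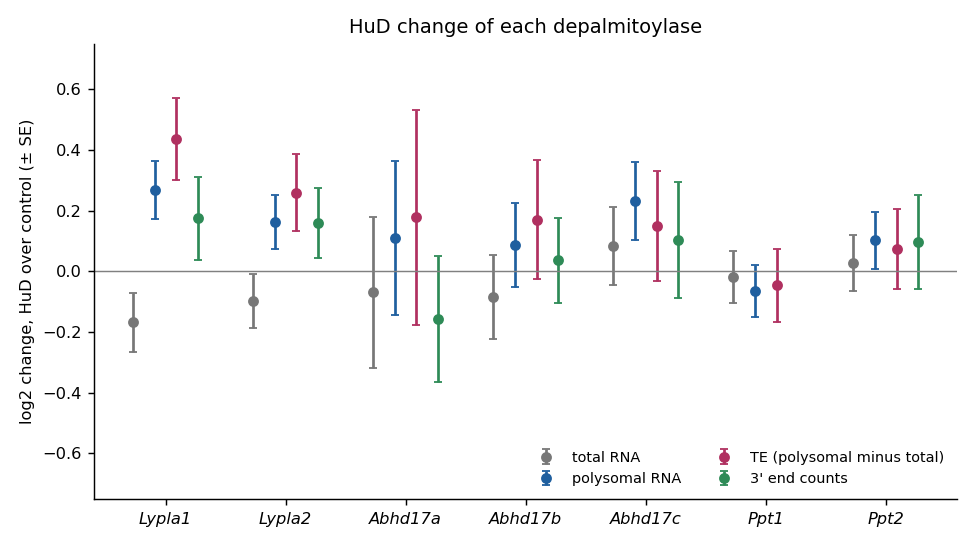
Log2 change of each depalmitoylase, HuD induced over control cells, in total RNA, polysomal RNA, TE and 3′ end counts (points, with bars of 1 SE from the edgeR fit). Lypla1 runs from -0.17 in total RNA to 0.44 in TE, the bars of Abhd17a are the widest, and Ppt1 has no 3′ end counts.

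Polysomal over total RNA was also compared within control cells, without induced HuD. These libraries are the same as the controls of the TE contrast, so the values of both are not independent. Lypla1 was higher in polysomal than in total RNA without overlap, as 18.9% of all genes were. Its log2 difference was 0.23 (SE 0.10), at percentile 88.9 of all genes, and is given with no test since the choice of Lypla1 used these libraries. It was 0.35 without control replicate 1 of POL-Seq and 0.11 without control replicate 2. Of the other 6 members, none had an unadjusted p under 0.05, against 10.7% of all genes, and after adjustment 0.174% of all genes passed (26 of 14906). Without control replicate 1 of POL-Seq it was 3 of 6 (Abhd17a, Abhd17b and Ppt1), against 32.2% of all genes, and without control replicate 2 it was 0, against 5.04%. Abhd17a had the lowest value of the family, -0.45 (SE 0.25, adjusted p = 0.496 in edgeR). It was -1.07 without control replicate 1 and -0.05 without control replicate 2. Each fit without a control replicate of POL-Seq left 1 library in that group, with no spread of its own.

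The 3′ ends came from libraries that had no part in the choice of Lypla1. Lypla1 was at 169, 135 and 153 CPM in control replicates 1, 2 and 3 and at 178, 151 and 187 CPM in the HuD libraries. The groups overlapped, and the log2 change was 0.17 (SE 0.14, adjusted p = 0.955 in edgeR). With HuD the count was higher in 3 of 3 pairs with the same replicate number, by 1.05- to 1.22-fold. Libraries with the same number deviated together here, and with the number as a block the change was 0.18 (SE 0.08, adjusted p = 0.267 in edgeR), and its unadjusted p was then under 0.05. The block raised the share of all genes with an unadjusted p under 0.05 from 5.87% to 18.7%, so 1 of 6 members is near that background. The replicate 2 libraries stood apart from the others in both groups (SD of the log2 difference over genes 0.347 to 0.472, against 0.216 and 0.245 between replicates 1 and 3), and the Lypla1 change lay between 0.09 and 0.26 with any 1 library left out. In the total RNA of the 2 replicates per group, Lypla1 was lower with HuD in 2 of 2 pairs, 0.884- and 0.896-fold, so RNA-Seq and 3′ end counts differed in sign. The difference between them was not tested.

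Of the other 5 members with 3′ end counts, none had an unadjusted p under 0.05 with or without the block, and after adjustment 5 of 9621 genes (0.052%) passed without it. Lypla2 was at 891, 868 and 745 CPM in control cells and at 873, 954 and 970 CPM with HuD (log2 change 0.16, SE 0.12, adjusted p = 0.952 in edgeR). Abhd17a was at 78.3, 111 and 76.9 CPM in control cells and at 75.2, 101 and 63.1 CPM with HuD, lower in 3 of 3 pairs (log2 change -0.16, SE 0.21, adjusted p = 0.994 in edgeR). Abhd17b, Abhd17c and Ppt2 had log2 changes of 0.04, 0.10 and 0.10, with adjusted p of 0.995 to 0.999 in edgeR. Lypla1, Lypla2, Abhd17b and Abhd17c each had 1 counted end. Abhd17a and Ppt2 had 3 each at neighbouring positions, and reads near such ends are counted for more than 1 of them. Once ends within 20 nt were merged, no member had more than 1 end, so a shift between proximal and distal ends could not be tested for the family.

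**Figure D4:**
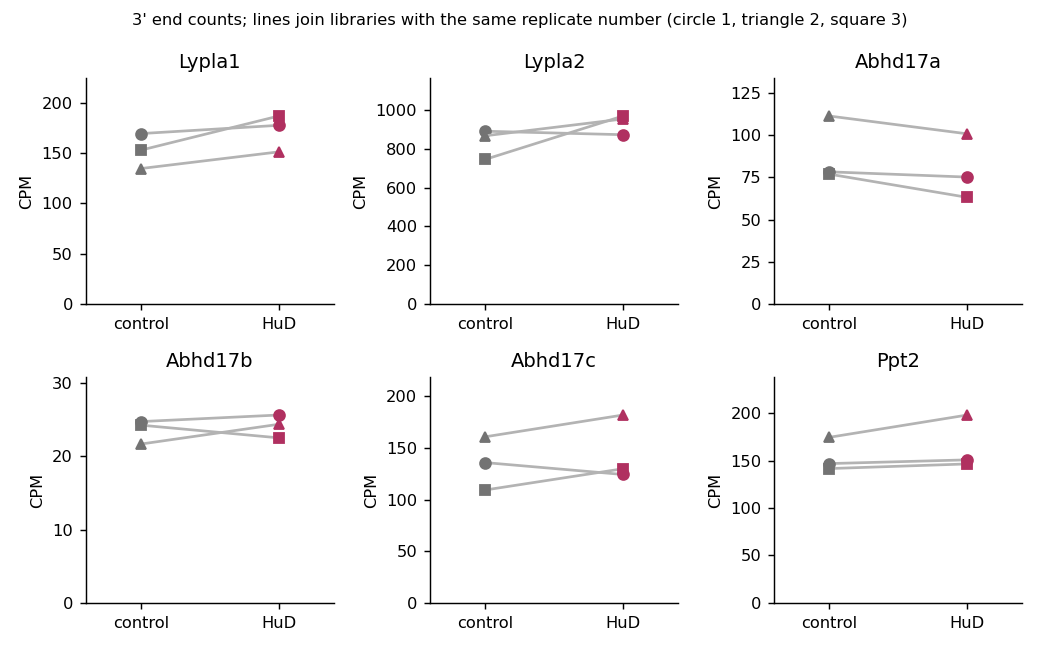
TMM-normalized CPM of the 3′ ends of 6 depalmitoylases in control and HuD induced cells, with lines joining libraries of the same replicate number (circle 1, triangle 2, square 3). Lypla1 and Ppt2 are higher with HuD in 3 of 3 pairs and Abhd17a is lower in 3 of 3, and in every panel the groups overlap.

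The genes whose level followed that of Lypla1 most closely over the 8 RNA-Seq and POL-Seq libraries were Arf4 (Pearson r of log2 CPM 0.983), Cd164 (0.979), Rab21 (0.977), Cmpk1 (0.976) and Sh3bgrl (0.975), of 9701 genes with a mean of at least 10 CPM. Arf4 and Rab21 encode small GTPases of membrane traffic. Their log2 changes in TE were 0.27 and 0.21, and those of Cd164, Cmpk1 and Sh3bgrl 0.36, 0.28 and 0.45. Within the family the r with Lypla1 was 0.823 for Abhd17b, 0.679 for Ppt1, 0.590 for Ppt2, 0.320 for Lypla2, 0.043 for Abhd17c and -0.587 for Abhd17a. The libraries share the contrast between fractions and between HuD and control, and these r are a description with no test.

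The acyltransferases add the palmitate that the family removes. Of 27 ZDHHC and accessory genes 24 were tested, and 0 had an unadjusted p under 0.05 in total RNA, polysomal RNA or TE by edgeR. Over all genes the shares were 2.64%, 4.17% and 0.979%, so 0 of 24 is near that background. Their median log2 change was 0.01 in total RNA, 0.08 in polysomal RNA and 0.02 in TE. Over all genes the medians were -0.00389, -0.00632 and -0.00625. In 3′ ends, Zdhhc24 was higher at an unadjusted p under 0.05 (log2 change 0.63, SE 0.26, adjusted p = 0.836 in edgeR), the only 1 of 18 tested, against 5.87% of all genes. With the block, 3 of the 18 were at that threshold, against 18.7% of all genes: Zdhhc24 (adjusted p = 0.0911) and Zdhhc13 higher and Zdhhc4 lower, and 0 passed adjustment. HuD windows were listed for 4 of the 27. Of the 23 whose symbols were found as protein coding in the annotation and had counts, 13.0% held one, against 9.88% of all such genes. This share leaves out Selk, whose symbol was not matched there. Zdhhc2 had 5 with a summed coverage of 286, Selk 3 with 106, Zdhhc17 1 with 26 and Zdhhc20 1 with 9. Abhd10, the mitochondrial depalmitoylase, had a log2 change in TE of 0.13 (SE 0.12, adjusted p = 1.00 in edgeR) and no window.

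Of 30 genes for palmitoylated proteins, all were tested. In polysomal RNA, Snap25, a synaptic vesicle fusion protein, had a log2 change of 0.29 and Rhob, a small GTPase, 0.37, both with an unadjusted p under 0.05 and neither past adjustment (adjusted p = 0.969 for each in edgeR). That is 2 of 30, against 4.17% of all genes. None of the 30 had an unadjusted p under 0.05 in total RNA or TE, against 2.64% and 0.979% of all genes. None of 28 did in 3′ ends, against 5.87% of all genes. With the block, 6 of the 28 were at that threshold in 3′ ends, against 18.7% of all genes, with Gnao1, Gnaq, Dlg4 and Syt1 higher and Gna11 and Scrib lower, and 0 passed adjustment. Of the 30, 7 held HuD windows (23.3%, against 9.88% of protein coding genes with counts). Canx, a chaperone of the endoplasmic reticulum, had 6 with a summed coverage of 945, and Gna13, a G protein alpha subunit, had 7 with a summed coverage of 280. Gnaq, Gna11 and Dlg4, which encodes PSD-95, had 2 each, and Gnai2 and Gnas 1 each. The log2 changes in TE of Canx and Gna13 were -0.13 (SE 0.24) and 0.02 (SE 0.13), and neither passed the test (adjusted p = 1.00 for each in edgeR).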

How the data were processed

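RNA-Seq, POL-Seq, 3′ end sequencing and CRAC tables of NSC-34 cells were used as deposited, and groups were taken from the sample labels. The authors deposited raw counts per gene (STAR 2.5.3a on GRCm38.p4, Gencode M6) and raw counts of reads starting within 10 nt of known polyadenylation sites, with no normalization. For CRAC the authors aligned reads with TopHat2 2.0.14, joined the replicates, penalised positions read in control cells, and deposited per window the coverage, as a signal in reads, the count of deletions, an unadjusted combined p-value and a score against their positional weight matrix.

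Lines with the same position were reduced to unique windows with the highest coverage, and 3′ ends to unique positions summed per gene. The test was the quasi-likelihood test of edgeR 4.0.16 under R 4.3.3, after TMM scaling and filterByExpr, with Benjamini-Hochberg adjustment at 0.05. Total RNA, polysomal RNA, TE (the interaction of fraction and HuD) and the control ratio came from 1 fit to 8 libraries, and 3′ ends from a fit to 6. Usage of ends within a gene was fitted with diffSpliceDGE (Simes p-values). The edgeR contrasts without a block and the fit of end usage were tested on simulated data. DESeq2 1.42.0, other filters, scaling, blocks and libraries left out were alternatives. CRAC values carry no replicate error.

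Same-numbered libraries deviated together in 3′ ends (r 0.400, 0.657 and 0.515 over genes, all above 0.1), so the replicate block is given beside those results.

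The members, the gene lists and the rule for naming were chosen with earlier results of these data known. All 8 listed members are named, as are list genes with a window or an unadjusted p under 0.05 and the 5 genes most like Lypla1. Sequences, lengths and overlaps were read from GENCODE vM21 in Python 3.11.15.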

Additional observations from a re-analysis of the deposited data

Results flagged for a closer look

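Lypla1 moved in opposite directions in the RNA fractions: both HuD induced libraries were below both control libraries in total RNA and above both in polysomal RNA, and the change in polysomal RNA exceeded that in total RNA by 0.44 on the log2 scale. The difference was not tested, since it is the value by which the gene was chosen. Groups of 2 and 3 libraries are too small for a test of single outlying libraries.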

How the results depend on the processing

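Lypla1 kept its sign under all settings in total RNA, polysomal RNA, TE, the control ratio and 3′ ends, and Lypla2 did so too. In DESeq2, 175 genes had an unadjusted p under 0.05 in total RNA, 369 in polysomal RNA and 50 in TE, and after adjustment 1, 3 and 0, with 67 in the control ratio and 35 in 3′ ends. With the replicate block the unadjusted counts were 918 in total RNA, 1386 in polysomal RNA, 362 in TE (with 1 member, Lypla2), 3071 in the control ratio (41 adjusted), 1798 in 3′ ends (217 adjusted, with 1 member, Lypla1) and 34 in end usage. RNA and polysomal deviations correlated between groups (r 0.188 to 0.387), but with 2 numbers per group each r rests on 1 independent pair. No source ties a number to a culture, so their numbers were not taken as pairs in the main fit. Matching by number served only to describe TE and folds of single libraries. The block changed no other member's call. Merging ends within 20 nt, chosen after seeing the data, gave 1796 genes with the block (247 adjusted, with 1 member). A fit to each fraction alone gave 315 genes in polysomal RNA and 1 adjusted in total RNA. Keeping windows with an authors' p under 0.05 left 0 Lypla1 windows, 0 members and 0% of coverage. The Lypla1 share of coverage, 0.159%, was 0.192% with adjoining windows merged and 0.179% of deletions.

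With each library left out, the lone library of a group being assumed to vary like the others, unadjusted counts ran from 218 to 303 in total RNA, 243 to 3262 in polysomal RNA (0 to 372 adjusted, 0 to 3 members), 100 to 2024 in TE (0 to 47 adjusted, 0 to 2 members), 580 to 4812 in the control ratio (0 to 2145 adjusted, 0 to 3 members), 322 to 1280 in 3′ ends (2 to 14 adjusted) and 4 to 15 in end usage. The highest polysomal, TE and control ratio counts were without control replicate 1 of POL-Seq. Signs turned for these log2 changes: in total RNA Abhd17a (-0.14 to 0.0011), Abhd17b (-0.23 to 0.048), Abhd17c (-0.038 to 0.19), Ppt1 (-0.087 to 0.053) and Ppt2 (-0.018 to 0.074). In polysomal RNA they were Abhd17a (-0.29 to 0.73), Abhd17b (-0.083 to 0.27) and Ppt1 (-0.14 to 0.020), and in TE Abhd17a (-0.23 to 0.80) and Ppt1 (-0.12 to 0.036). In the control ratio they were Abhd17b (-0.050 to 0.31), Abhd17c (-0.27 to 0.053) and Ppt2 (-0.010 to 0.12), and in 3′ ends Abhd17a (-0.36 to 0.039), Abhd17b (-0.019 to 0.086), Abhd17c (-0.087 to 0.25) and Ppt2 (-0.052 to 0.20). The cause was not tested. The lowest count of a member in any library was 298 (Abhd17b, 3′ ends).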
